A study of Mus musculus with 42 samples.

Results

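Vps37b and Ifrd1 were followed in mouse CD4+ T cells from the naive state through the effector and rested stages to memory. Both genes were low in rested cells and close to the naive level again in memory cells. They were selected on exactly this pattern in these samples, so their differences between stages are given as a description, with standard errors and without a test. Each gene was represented by 1 reporter (a probe spotted on the array), and the pair made up 2 of the 3230 genes named from single-gene reporters, or 2 of the 4992 reporters on the array.

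Vps37b encodes a subunit of ESCRT-I, the complex that captures ubiquitinated membrane proteins on endosomes and passes them towards lysosomal destruction. Mammals have several alternative Vps37 subunits, which join Tsg101 and Vps28 in the complex. In T cells, sorting by the ESCRT machinery is part of the down-regulation of activated surface receptors, the T cell receptor among them. Ifrd1, also called Tis7 after its discovery as a sequence induced by phorbol ester, encodes a transcriptional co-regulator that binds SIN3 and histone deacetylase complexes.

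Every group descended from AND TcR transgenic/GFP transgenic mice, whose CD4+ T cells carry a single transgenic receptor for a pigeon cytochrome C peptide shown by I-Ek. Naive cells (CD44 low, CD62L high, CD45RB high, CD25-) were taken from the spleen per the growth protocol, although the source field of all samples reads thymus. Effector Th1 and effector Th2 cells came from 4 days of in-vitro stimulation by antigen presenting cells, in Th1 or in Th2 conditions. Rested Th1 and rested Th2 cells had spent 3 more days in culture without those cells. Memory Th1 and memory Th2 cells were rested cells that had been placed in thymectomized, lethally irradiated hosts reconstituted with T cell-depleted bone marrow, and were sorted 4 to 12 weeks later. Each of the 7 groups had 3 samples with 2 filter arrays each. Naive and memory cells thus came directly from mice and effector and rested cells from culture, so stage and source cannot be told apart. The ages of the mice, and whether the numbered samples came from separate animals, are not stated by the labels, and the errors therefore measure the spread between these samples, which may be technical.

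The 4 spot values of a reporter, from 2 spots on each of 2 arrays, were exactly proportional between the samples of 13 pairs with the same number. All Th1 and Th2 samples of the same stage and number were such pairs, and so were naive and memory samples 1 and 3, so that the 21 samples held 10 such patterns. Successive stages (naive to effector, effector to rested, rested to memory) had no pattern in common. In those steps a change of stage and a change of pattern cannot be told apart. Of 18 CD4 T cell markers only Cd247, a chain of the T cell receptor complex, was measured, at levels of 0.99 to 2.39 over the samples and with no call in any step, and B cell as well as CD8 T and NK cell markers had no reporter. The cell identity in the labels could therefore not be checked on its defining markers.

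The bases upstream of Ifrd1 are shown because this gene was first known as an inducible one and its level differed between the stages here. They are from the RefSeq promoter table (GRCm38.p6, chr12:40223190-40223439, minus strand), the 250 bases before the annotated start, 5′ to 3′, with the motif letters in capitals.
Ifrd1: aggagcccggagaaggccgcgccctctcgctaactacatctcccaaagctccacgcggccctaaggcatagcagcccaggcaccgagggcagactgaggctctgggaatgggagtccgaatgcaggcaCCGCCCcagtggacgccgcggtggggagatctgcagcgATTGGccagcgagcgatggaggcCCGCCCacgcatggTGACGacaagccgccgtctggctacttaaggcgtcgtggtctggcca
The capitals mark GGGCGG, the GC box, on the opposite strand at 122 and 61 bases before the start, CCAAT on the opposite strand at 84 bases, and TGACG, the core of the cAMP response element, on the gene's own strand at 47 bases. Both strands were searched. GGGCGG stood in 32.7%, CCAAT in 33.8% and TGACG in 17.8% of the 32851 promoter windows of the same length. The full element TGACGTCA, the AP-1 motif TGANTCA, the FOXO motif GTAAACA and the E-box CACGTG were not in this window. They stood in 1.55%, 6.75%, 3.17% and 6.02% of all windows.

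Levels are given as log2(intensity + 1) after quantile normalization of all arrays, so that a difference of 1 is a doubling of normalised intensity. Vps37b had levels of 6.24, 6.93 and 7.34 in the 3 naive samples. It had 3.39, 3.22 and 3.97 in effector Th1 cells and 3.27, 3.54 and 3.98 in effector Th2 cells. Vps37b was low in every effector sample, and the effector and naive values did not overlap. Rested Th1 cells had 3.60, 3.62 and 3.88, and rested Th2 cells 3.60, 4.17 and 4.72. Memory Th1 cells had 6.15, 6.08 and 7.17, and memory Th2 cells 6.10, 6.37 and 7.28. Memory and naive values overlapped, and the lowest of these 9 samples (6.08) lay 1.36 above the highest of the 12 effector and rested samples (4.72). Before normalization, the deposited intensities of Vps37b ran from 55.7 to 189.9 over the naive and memory samples and from 7.27 to 26.9 over the effector and rested samples. The sample numbered 3 was the highest of its group in all 7 groups.

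Ifrd1 also stood high in naive and memory cells, but its lowest values lay in rested cells rather than at both culture stages. Its levels were 7.31, 7.01 and 7.59 in naive cells. Effector Th1 cells had 6.46, 5.76 and 6.26, and effector Th2 cells 5.76, 5.36 and 6.03, all below every naive sample. Rested Th1 cells had 4.22, 5.41 and 3.77, and rested Th2 cells 4.70, 5.33 and 4.89. In both lineages the rested sample numbered 2 was the highest of its group, and 5.41 in rested Th1 cells lay above the lowest effector Th2 value of 5.36. Memory Th1 cells had 6.84, 7.03 and 7.06, and memory Th2 cells 7.37, 7.61 and 7.64. The lowest naive or memory value (6.84) lay 0.38 above the highest effector or rested value (6.46), a smaller gap than that of Vps37b. The deposited intensities were 93.7 to 241.6 in naive and memory samples, 48.7 to 91.4 in effector samples and 10.5 to 39.0 in rested samples.

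**Figure D1:**
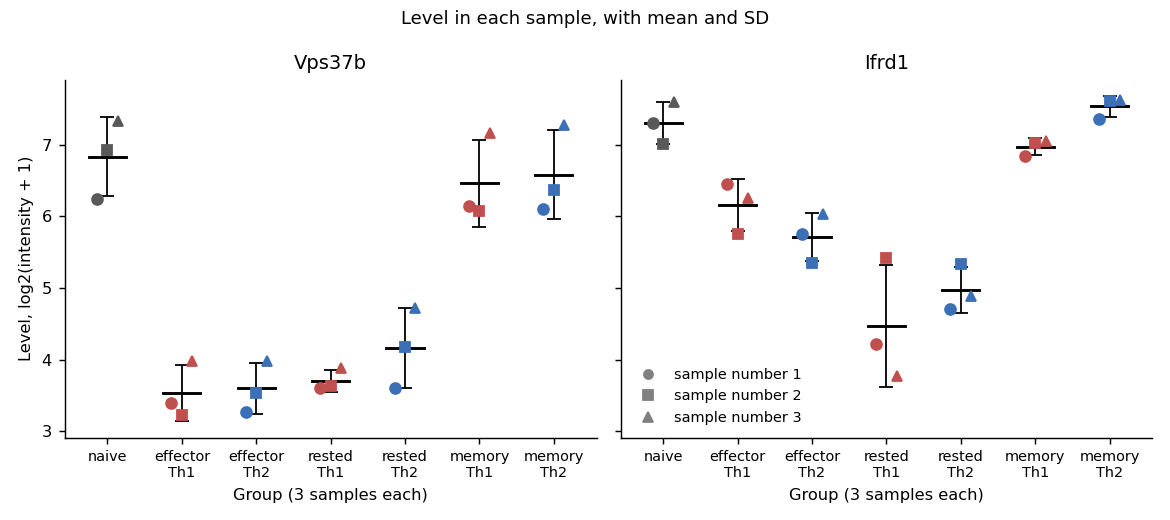
Level of Vps37b (left) and Ifrd1 (right) in each of the 21 samples, as log2(intensity + 1), by group in the order of the stages. Points are samples, with a symbol per sample number, horizontal lines are means and bars are SD of 3 samples. Vps37b stayed at or below 4.72 in all effector and rested samples, while Ifrd1 was intermediate in effector and lowest in rested samples.

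Ordered by group mean, Vps37b fell into a high and a low set. Naive cells (6.84 ± 0.55, SD, n = 3 here and below), memory Th2 cells (6.58 ± 0.62) and memory Th1 cells (6.46 ± 0.61) formed the high set, and each overlapped its neighbour. Rested Th2 cells followed 2.30 below at 4.16 ± 0.56, then rested Th1 cells (3.70 ± 0.15), effector Th2 cells (3.60 ± 0.36) and effector Th1 cells (3.53 ± 0.39), again with overlap between neighbours. For Ifrd1 the order was memory Th2 (7.54 ± 0.15), naive (7.31 ± 0.29), memory Th1 (6.98 ± 0.12), effector Th1 (6.16 ± 0.36), effector Th2 (5.71 ± 0.34), rested Th2 (4.97 ± 0.32) and rested Th1 (4.47 ± 0.85). Here neighbouring groups were separate at 2 places, between memory Th1 and effector Th1 cells and between effector Th2 and rested Th2 cells. At the latter place the lowest effector Th2 value (5.36) lay only just above the highest rested Th2 value (5.33). The remaining neighbours overlapped.

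The group means placed the loss of Vps37b at the effector stage and that of Ifrd1 at the effector and rested stages. The effector minus naive difference of Vps37b was -3.31 ± 0.38 in Th1 (SE from the fit over all groups, n = 3 per group; 9.89-fold lower) and -3.24 ± 0.38 in Th2 cells (9.45-fold lower). Both comparisons used the same naive samples. Its rested minus effector values were 0.17 ± 0.38 in Th1 and 0.57 ± 0.38 in Th2 cells, and 105% of the rested minus naive difference was present in effector Th1 cells and 121% in effector Th2 cells. The effector means of Vps37b (3.53 in Th1, 3.60 in Th2) lay near the median level of all reporters (3.13). A further fall of this gene in rested cells may therefore be understated, which limits the comparison of its timing with that of Ifrd1. Such a level is not a floor. The 2 measured erythroid and platelet markers had a median level of 2.93 in rested Th1 and 1.50 in memory Th1 cells. For Ifrd1 the effector minus naive difference was -1.15 ± 0.33 in Th1 and -1.59 ± 0.33 in Th2 cells (2.21-fold and 3.01-fold lower). Its rested minus effector values were again negative, with -1.69 ± 0.33 in Th1 and -0.74 ± 0.33 in Th2 cells. Within same-numbered pairs they were -2.24, -0.35 and -2.49 in Th1 and -1.05, -0.02 and -1.15 in Th2 cells. The second fall of Ifrd1 was thus small or nearly absent in number 2 of both lineages. For Ifrd1, 40.4% of the rested minus naive difference was present in effector Th1 cells and 68.3% in effector Th2 cells.

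The rested minus naive difference was -3.13 ± 0.38 (Th1) and -2.67 ± 0.38 (Th2) for Vps37b, and -2.84 ± 0.33 (Th1) and -2.33 ± 0.33 (Th2) for Ifrd1. Without rested Th1 sample 2, Ifrd1 in rested Th1 cells differed by -3.31 from naive cells and by -2.16 from effector Th1 cells.

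Memory cells were higher than rested cells of their lineage by similar amounts for both genes. Vps37b was higher in memory Th1 cells by 2.76 ± 0.38 (6.79-fold) and in memory Th2 cells by 2.42 ± 0.38 (5.35-fold). Ifrd1 was higher by 2.51 ± 0.33 (5.68-fold) in memory Th1 and by 2.56 ± 0.33 (5.91-fold) in memory Th2 cells. No more than 0.0601% of all reporters had a larger memory minus rested value than either gene, in either lineage. Both genes were selected for this rise, so the share only describes its size. Of the rested minus naive difference, memory cells had regained 88.2% (Th1) and 90.6% (Th2) for Vps37b and 88.4% (Th1) and 110% (Th2) for Ifrd1.

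The remaining memory minus naive differences of Vps37b were -0.37 ± 0.38 in Th1 and -0.25 ± 0.38 in Th2 cells. Those of Ifrd1 were -0.33 ± 0.33 in Th1 and 0.23 ± 0.33 in Th2 cells, none of the 4 larger than its SE. Within the pairs that shared a spot pattern (numbers 1 and 3), Vps37b differed by -0.10 and -0.17 in memory Th1 and by -0.15 and -0.05 in memory Th2 cells, and by -0.85 and -0.56 in the unshared number 2. Ifrd1 differed by -0.47 and -0.54 in memory Th1 and by 0.06 and 0.04 in memory Th2 cells within shared patterns, and by 0.02 and 0.60 in number 2.

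**Figure D2:**
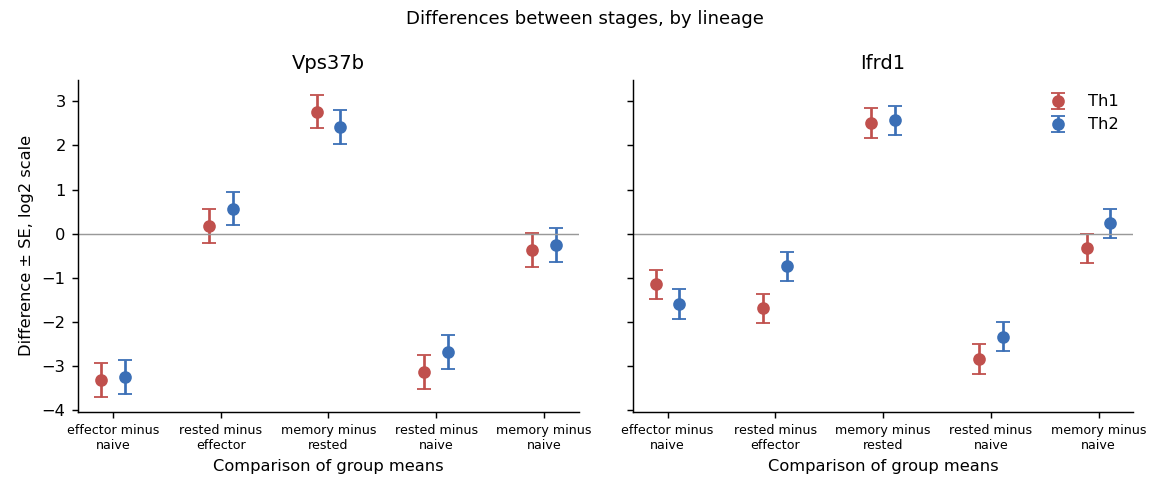
Differences between stages for Vps37b (left) and Ifrd1 (right), in log2 units, for Th1 and Th2 cells; points are differences of group means and bars are SE. The effector minus naive difference of Vps37b was about as large as its rested minus naive difference, whereas Ifrd1 had negative values in the effector and in the rest step, and both had memory minus rested values between 2.42 and 2.76.

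The reporters with a like start were counted to place the genes. At a threshold of 2-fold, 172 of 4992 reporters were lower than in naive cells in both effector groups, Vps37b and Ifrd1 among them by their selection. Of these, 46 (26.7%) were still at least 2-fold lower in both rested groups. Both genes belong to the 33 reporters (19.2% of the 172) that were low in both rested groups and not 2-fold lower than naive in either memory group. The remaining 13 were still 2-fold lower in at least 1 memory group, and 6 of them in both. At 4-fold the counts were 18, 6 and 4, with Vps37b and without Ifrd1. Averaged over the lineages, the median reporter of the 172 differed from naive cells by -1.33 in effector, -0.74 in rested and -0.31 in memory cells. On the same average Vps37b differed by -3.27, -2.90 and -0.31, and Ifrd1 by -1.37, -2.58 and -0.05. Their memory minus rested values, 2.59 and 2.54, ranked 2 and 3 among the 172, whose median was 0.43. These counts and ranks describe group means, include the values on which the genes were selected, and carry no test.

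**Figure D3:**
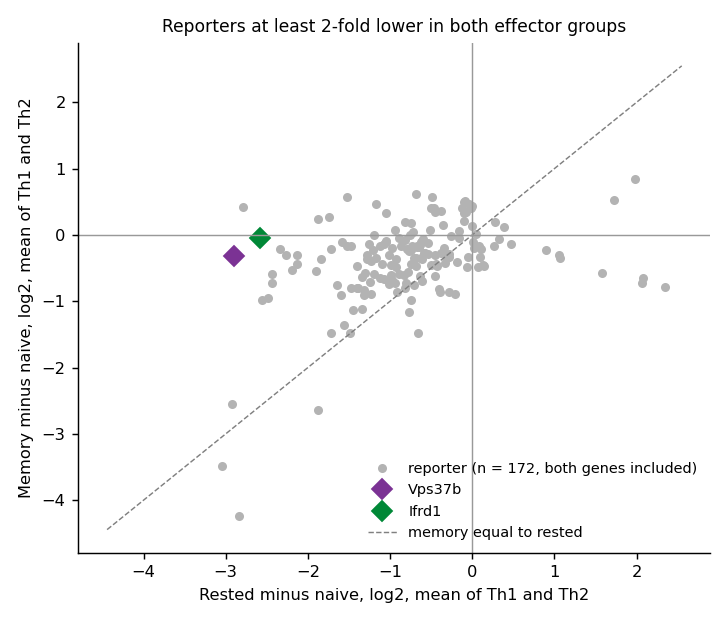
Rested minus naive (horizontal) and memory minus naive (vertical) difference in log2 units, averaged over Th1 and Th2 cells, for the 172 reporters at least 2-fold lower in both effector groups. Vps37b (-2.90 and -0.31) and Ifrd1 (-2.58 and -0.05) lie at the far left, near the memory minus naive value of 0; the dashed line marks equal values in memory and rested cells.

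The contrast between Th1 and Th2 cells was not used to choose the genes and was tested with limma over all 4992 reporters. Neither gene differed between the lineages at any stage at an adjusted p of 0.05. Few reporters did: 0.18% at the effector stage, 0.361% at the rested stage, 0.2% at the memory stage and 0.321% for the mean of the 3 stages were called. With the sample number as a block, the counts of called reporters were 26, 118, 20 and 37, against 9, 18, 10 and 16 without it, and neither gene was among the calls.

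For Vps37b the Th1 minus Th2 difference was -0.07 ± 0.38 in effector (adjusted p = 1.00, 95% interval -0.86 to 0.73), -0.46 ± 0.38 in rested (adjusted p = 0.954, -1.26 to 0.33) and -0.12 ± 0.38 in memory cells (adjusted p = 0.999, -0.91 to 0.68). Within same-numbered pairs, all of which shared a spot pattern, it was 0.12, -0.31 and -0.0044 in effector, 0.00028, -0.55 and -0.84 in rested and 0.05, -0.29 and -0.12 in memory cells. Differences of up to about 1.26 in rested cells thus lay within the interval.

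For Ifrd1 the Th1 minus Th2 difference was 0.44 ± 0.33 in effector (adjusted p = 1.00, 95% interval -0.25 to 1.14), -0.51 ± 0.33 in rested (adjusted p = 0.817, -1.20 to 0.19) and -0.56 ± 0.33 in memory cells (adjusted p = 0.999, -1.26 to 0.13). The SE pools the spread of all 7 groups, and the SD was largest in rested Th1 cells (0.85). It was 0.12 in memory Th1 and 0.15 in memory Th2 cells, so the pooled SE exceeds the SD within either memory group. All memory Th1 values (6.84 to 7.06) lay below all memory Th2 values (7.37 to 7.64). In effector cells the 3 same-numbered pairs gave 0.70, 0.40 and 0.23. In memory cells they gave -0.53, -0.58 and -0.58, so that Ifrd1 was lower in memory Th1 than in memory Th2 cells in all 3 pairs and by nearly the same amount. Before normalization the deposited intensities in memory Th1 and Th2 cells were 93.7 and 133.1, 151.0 and 217.3, and 173.7 and 184.3. The pair numbered 3 was closer there, so the near equality of the differences depends on the normalization. In rested cells the same-numbered pairs gave differences of -0.48, 0.08 and -1.11. With the spot pattern as a random block (correlation 0.784), the same differences passed in rested (adjusted p = 0.0429) and memory cells (adjusted p = 0.0496). In that fit, however, 1005 and 396 reporters were called at the rested and memory stages, against 18 and 10 without the block, and Vps37b missed the threshold in rested cells (adjusted p = 0.0504).

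**Figure D4:**
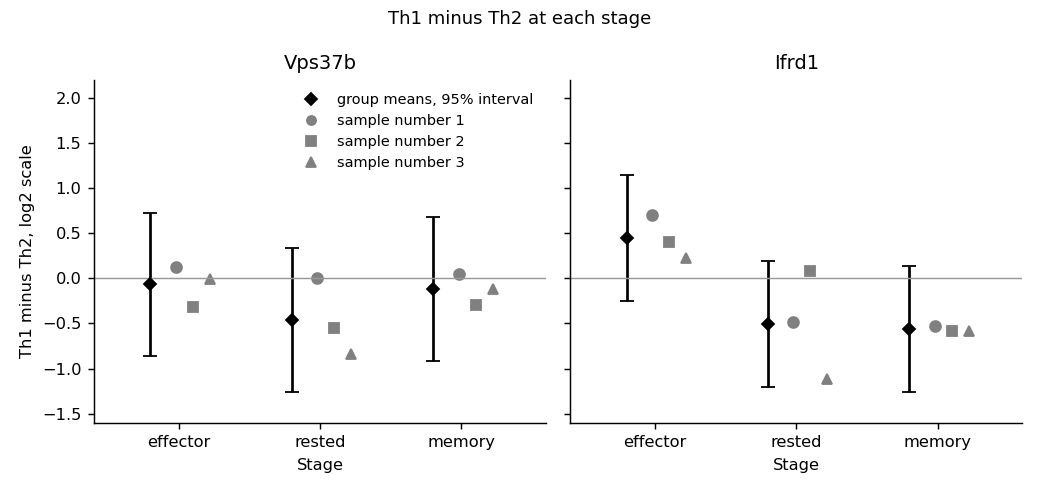
Th1 minus Th2 difference in log2 units at the effector, rested and memory stages for Vps37b (left) and Ifrd1 (right). Diamonds are differences of group means with 95% intervals, and grey symbols are differences within same-numbered pairs. All intervals include 0, and the 3 Ifrd1 memory pairs lie between -0.58 and -0.53.

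The lineages were also compared in their timing. The rest step (rested minus effector) differed between Th1 and Th2 cells by -0.95 ± 0.47 for Ifrd1 (adjusted p = 1.00, 95% interval -1.93 to 0.03) and by -0.40 ± 0.54 for Vps37b (adjusted p = 1.00, -1.52 to 0.73), in a comparison where 0.1% of reporters were called. The Ifrd1 difference passed with the spot pattern as a random block (adjusted p = 0.0191, 398 calls against 5). The memory step (memory minus rested) differed by -0.06 ± 0.47 for Ifrd1 (adjusted p = 0.998, -1.04 to 0.93) and by 0.34 ± 0.54 for Vps37b (adjusted p = 0.998, -0.78 to 1.47), with 0.0601% of reporters called. Averaged over the 3 stages, Th1 minus Th2 was -0.22 ± 0.22 for Vps37b and -0.21 ± 0.19 for Ifrd1 (both adjusted p = 1.00).

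The other measured subunit genes of ESCRT-I were read in the same steps. Of the 9 listed ESCRT-I genes 5 were measured, and none of the 4 beside Vps37b was called in the effector or rest steps. In the effector steps 9.88% (Th1) and 9.13% (Th2) of all reporters were called, and in the rest steps 16.2% (Th1) and 7.57% (Th2). For only 4 genes, no call lies near these shares. Vps37a and Vps37c were also dim, with mean levels of 3.05 and 2.01 beside a median of 3.13 over all reporters, so a change may be understated. The alternative subunit genes Vps37a and Vps37c had effector minus naive values between -0.55 and 0.20, and memory minus rested values of 0.71 and 0.89 (Vps37a) and -0.91 and -0.84 (Vps37c), in Th1 and Th2 cells in that order, none called. Vps28, a core subunit gene, had memory minus rested values of -0.26 in Th1 and -0.86 in Th2 cells, also not called.

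Tsg101, the subunit gene that recognises ubiquitinated cargo, fell in memory against rested cells, with differences of -1.26 ± 0.36 in Th1 (adjusted p = 0.0220) and -1.31 ± 0.36 in Th2 cells (adjusted p = 0.0463), where 17.8% and 3.91% of all reporters were called. The Th1 call was lost without rested Th1 sample 2 or memory Th1 sample 1, and the Th2 call in 13 of the 21 fits that left out 1 sample. With the sample number as a block, 1 of the 4 genes rose in each rest step, where that fit called 27.3% (Th1) and 15.8% (Th2) of all reporters, and 2 fell in the Th2 memory step (14.4% called).

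No ESCRT-0 or ESCRT-II gene was measured. Of 16 genes of ESCRT-III, its adaptors and the VPS4 ATPases, which constrict and cut the membrane, 7 were measured and few passed. Chmp2b, a subunit of the ESCRT-III filament, rose in memory Th1 against rested Th1 cells by 1.15 ± 0.21, and Chmp5 fell in rested Th1 against effector Th1 cells (-1.12 ± 0.31), a call that was lost without effector Th1 sample 3 or rested Th1 sample 2. These were the only calls among the 7 genes in the 6 steps, in the Th1 rest step (16.2% of all reporters called) and the Th1 memory step (17.8%), and without memory Th1 sample 1 2 rose in the Th1 memory step. With the sample number as a block 2 fell in the Th1 rest step (27.3% of all reporters called), 2 rose in the Th1 memory step (32.2%) and 1 rose in the Th2 memory step (14.4%). The list medians in memory against rested cells were 0.56 (Th1) and -0.40 (Th2), beside 0.09 and 0.02 over all reporters.

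Among the partners of Ifrd1, 7 other genes of the 13 listed for the IFRD family and SIN3-HDAC complexes were measured. Hdac1, a histone deacetylase of the SIN3 complex, rose in effector Th1 cells by 4.39 ± 0.35 and in effector Th2 cells by 3.45 ± 0.35, opposite in sign to Ifrd1. In the rest step it fell, with the same sign as Ifrd1, by -1.17 ± 0.35 in Th1 and -0.82 ± 0.35 in Th2 cells. The Th1 rest call of Hdac1 was lost in 4 of the 21 fits without 1 sample, and the Th2 value was not called. Its memory minus rested value was -1.77 ± 0.35 in Th1 cells (called), while the Th2 value of -1.25 ± 0.35 lost its call in 15 of the 21 fits without 1 sample. Sap30, a SIN3 complex subunit gene, rose in effector Th1 cells by 1.12 ± 0.25 and fell in rested Th1 cells (-1.48 ± 0.25). In the memory step the called rises, of the same sign as Ifrd1, were Hdac2 (1.23) and Sap18 (0.99) in Th1 and Sap30 (1.16) in Th2 cells. The called falls were Hdac1, Sin3a and Rbbp4 (-1.11) in Th1 and Hdac1 in Th2 cells. In all, 2 of the 7 rose and 0 fell in effector Th1 cells (9.88% of all reporters called), 0 rose and 3 fell in the Th1 rest step (16.2%), and 2 rose and 3 fell in the Th1 memory step (17.8%). The Th2 counts were 1 and 0 (9.13%), 0 and 1 (7.57%), and 1 and 1 (3.91%). These counts leaned on single samples. The falls in the Th1 rest step numbered 1 without effector Th1 sample 1 or 3 or rested Th1 sample 1 or 2, and the rises in the Th1 memory step 0 or 1 without any 1 of the 6 rested and memory Th1 samples. The Th2 rises numbered 2 in effector cells without rested Th1 or rested Th2 sample 3, and 0 in the memory step without memory Th2 sample 1 or rested Th2 sample 3, and the Th2 rest call was lost without rested Th2 sample 3. Sin3a, which encodes the scaffold of the SIN3 complex and was among the falls in memory Th1 cells (-0.89), lost its call in 14 of the 21 fits without 1 sample. With the sample number as a block 2 rose in effector Th1 (16.7% of all reporters called) and 2 in effector Th2 cells (15.2%), and 4 rose in memory Th1 cells (32.2%).

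Ifrd1 was read beside the other phorbol ester-induced and immediate-early genes, which respond within a short time to receptor stimulation. Apart from Ifrd1, 10 of the 33 listed genes were measured. In effector cells 3 rose and 2 fell (Th1, 9.88% of all reporters called), and 0 rose and 2 fell (Th2, 9.13%). In the rest steps 2 rose and 3 fell in Th1 cells (16.2%), and 0 rose and 1 fell in Th2 cells (7.57%). The Th2 rest call was lost without any 1 of the 6 samples compared. In the memory step 3 rose and 1 fell in Th1 cells (17.8%) and 4 rose and 0 fell in Th2 cells (3.91%), with list medians of 0.71 and 1.04 beside 0.09 and 0.02 over all reporters. In the Th1 memory step 1 rose without memory Th1 sample 1, and the fall was lost without memory Th1 sample 1 or 3 or rested Th1 sample 1 or 2. In the Th2 memory step 2 rose without memory Th2 sample 1 or any 1 of the 3 rested Th2 samples. With the sample number as a block 5 rose in each memory step, where that fit called 32.2% (Th1) and 14.4% (Th2) of all reporters.

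Within this list Nfkbia, the inhibitor of NF-κB, was one of the 5 genes most like Vps37b. It fell in effector cells, with -2.53 ± 0.23 in Th1 and -2.23 ± 0.23 in Th2, and rose in memory against rested cells by 1.21 ± 0.23 (Th1) and 1.50 ± 0.23 (Th2), but it had already risen in rested Th1 cells by 1.00 ± 0.23, a call that was lost with median centring. Klf4, a zinc finger transcription factor gene linked to quiescence, rose in memory Th2 cells by 2.06 ± 0.33. It also rose in memory Th1 cells by 1.08, a call that was lost in 4 of the 21 fits without 1 sample. Its effector minus naive values of -0.38 (Th1) and -0.53 (Th2) were not called. Rgs2, a regulator of G protein signalling, fell in effector Th1 cells (-3.20 ± 0.35) and in effector Th2 cells (-1.76, adjusted p = 0.00193). It rose by 1.73 ± 0.35 in the Th1 rest step, and had memory minus rested values of 0.79 and 0.86 that were not called. Jun, an AP-1 subunit gene, rose in effector Th1 cells by 1.88 ± 0.41 and fell again in the Th1 rest step (-1.61 ± 0.41). The effector Th2 value of Jun was -0.58 ± 0.41.

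The genes whose levels were most like each of the pair were ranked by Pearson's r over the 21 samples among 1923 other genes with a mean level of at least 3. Samples share numbers, spot patterns and groups, so these coefficients are descriptions. For Vps37b they were Tsc22d3 (r = 0.952), Bzw2 (0.946), Nfkbia (0.938), Abt1 (0.931) and Acads (0.904). Tsc22d3, a glucocorticoid-induced leucine zipper gene of resting lymphocytes, had group means of 5.76 in naive, 3.15 and 3.19 in effector Th1 and Th2, 3.26 and 3.59 in rested Th1 and Th2, and 5.41 and 5.70 in memory Th1 and Th2 cells. Like Vps37b, it was low at both culture stages. Bzw2, whose product resembles a translation initiation factor, differed from naive cells by -2.23 (effector Th1), -2.36 (rested Th1) and -0.45 (memory Th1). Abt1, a basal transcription activator gene, had a shallower course with -1.15, -1.13 and -0.15 in the same groups.

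For Ifrd1 the nearest genes were Gm7993 (r = 0.934), a gene known here by its model number, Ovgp1 (0.932), which encodes an oviductal glycoprotein, Dnaja1 (0.919), a co-chaperone of Hsp70, Fam107b (0.906) and Ezr (0.874), which encodes ezrin, a linker of membrane and actin. Dnaja1 had group means of 6.38 in naive, 5.07 and 5.11 in effector Th1 and Th2, and 3.94 and 5.06 in rested Th1 and Th2 cells. All 5 were lowest in rested cells of at least 1 lineage, as was Ifrd1. Vps37b and Ifrd1 correlated with each other at r = 0.792, which placed Ifrd1 at rank 71 for Vps37b and Vps37b at rank 29 for Ifrd1. With Spearman's rho 3 (Vps37b) and 4 (Ifrd1) of the 5 genes stayed among the 5 nearest, and with the 7 group means 3 of each.

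**Figure D5:**
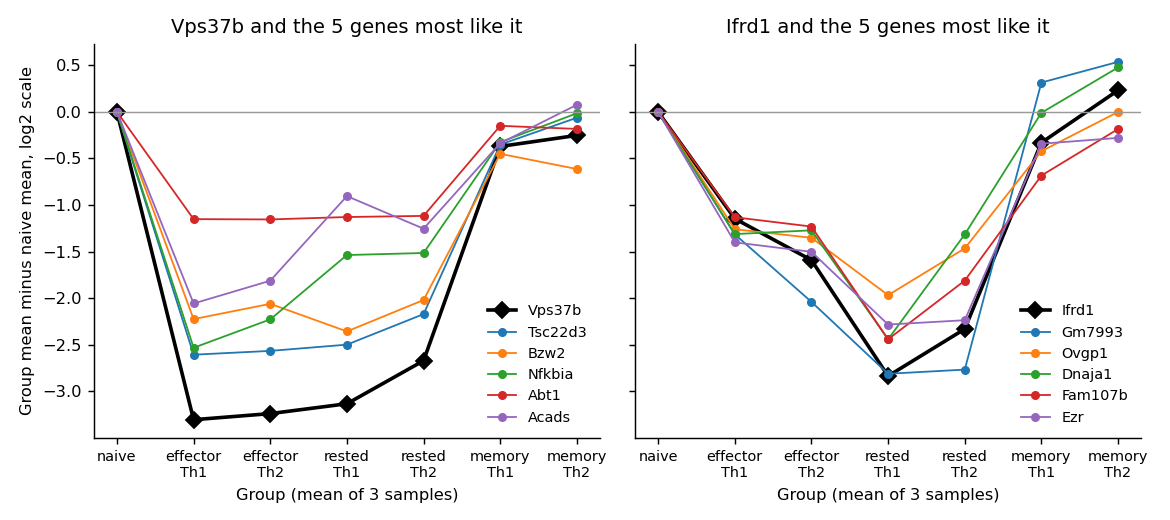
Group means relative to the naive mean, in log2 units, for Vps37b and the 5 genes most like it (left) and for Ifrd1 and the 5 genes most like it (right), by group in the order of the stages. The genes beside Vps37b were already low in effector cells, while those beside Ifrd1 were lower in rested Th1 than in effector Th1 cells.

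Over all reporters, the split of calls between rises and falls depended on the scaling. With median centring, the share of rises among the calls was 64.9% (Th1) and 66.5% (Th2) in the effector steps, 37.5% and 32.8% in the rest steps, and 63.1% and 56.3% in the memory steps. With quantile normalization the shares were 56.0% and 58.1%, 46.9% and 45.5%, and 53.0% and 58.5% in the same order. The widest moves were in the Th2 rest step, with 104 rises and 213 falls against 172 and 206, and in the Th1 memory step, with 576 and 337 against 470 and 417. The counts of called reporters in the 6 steps were 493, 456, 810, 378, 887 and 195 (effector Th1 and Th2, rest Th1 and Th2, memory Th1 and Th2), and 836, 761, 1362, 790, 1607 and 719 with the sample number as a block.

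Markers of other cells were read because naive and memory cells were taken from mice. Of 19 myeloid markers 7 were measured, and 3 fell and 0 rose in each effector step, where 9.88% (Th1) and 9.13% (Th2) of all reporters were called. In the rest steps 2 rose in Th1 (16.2% of all reporters called) and 1 in Th2 cells (7.57%), and in the memory steps 2 fell in Th1 (17.8%) and 1 in Th2 cells (3.91%). The Th2 memory call was lost without memory Th2 sample 3 or any 1 of the rested Th2 samples, and the Th2 rest step had 2 rises without memory Th1 sample 3. The 3 that fell in effector cells took different courses. Lyz2, a lysozyme of macrophages and granulocytes, fell in effector cells (-3.33 ± 0.31 in Th1, -3.18 ± 0.31 in Th2), and its memory minus rested values were -2.15 ± 0.31 (called) in Th1 and -0.65 ± 0.31 (not called) in Th2 cells. Ctsb, a lysosomal protease gene, fell in effector cells (-1.57 ± 0.27 and -1.40 ± 0.27), rose in the rest step by 1.62 ± 0.27 (Th1) and 1.34 ± 0.27 (Th2), and had memory minus rested values of -0.07 and 0.36. Fcer1g, an Fc receptor chain gene, fell in effector cells (-1.74 ± 0.34 and -1.73 ± 0.34) and had no call in the later steps. Lgmn, another lysosomal protease gene, rose in the Th1 rest step by 1.73 ± 0.27 and fell in memory Th1 (-1.83 ± 0.27) and memory Th2 cells (-1.12 ± 0.27). The mean level of the measured myeloid markers per sample was 3.83 to 4.22 in naive cells, 2.75 to 2.96 in effector Th1 and 2.70 to 3.06 in effector Th2 cells. It was 3.32 to 3.68 in rested Th1, 3.26 to 3.46 in rested Th2, 2.78 to 3.07 in memory Th1 and 3.17 to 3.36 in memory Th2 cells. Of 9 granulocyte markers 3 were measured, with means of 5.04 to 5.27 in naive, 3.23 to 4.02 in effector, 4.08 to 4.54 in rested, 2.88 to 3.24 in memory Th1 and 4.29 to 4.47 in memory Th2 cells. Of 9 erythroid and platelet markers 2 were measured. Their mean was 2.04 to 2.09 in naive, 1.96 to 2.09 in effector, 2.63 to 3.05 in rested Th1, 1.84 to 2.42 in rested Th2, 1.20 to 1.91 in memory Th1 and 2.01 to 2.10 in memory Th2 cells. Itga2b, a platelet integrin gene, rose in the Th1 rest step (0.90 ± 0.23), and it (-1.59 ± 0.23) and Alas2, a haem synthesis gene (-1.07 ± 0.31), fell in memory Th1 against rested Th1 cells, the step in which the pair was higher. The Alas2 call was lost without rested Th1 sample 1 or memory Th1 sample 1.

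Of 6 thymocyte markers 2 were measured, Cd1d1 and Cd24a, and they differed from each other. Cd1d1, which encodes a lipid-presenting molecule that several immune cells carry, fell in effector cells (-1.43 ± 0.31 in Th1, -1.83 ± 0.31 in Th2) and rose in memory against rested cells by 1.55 ± 0.31 (Th1) and 2.64 ± 0.31 (Th2). In the effector steps 9.88% (Th1) and 9.13% (Th2) of all reporters were called, and in the memory steps 17.8% (Th1) and 3.91% (Th2). With median centring the effector Th1 call of Cd1d1 was lost. Cd24a, a surface glycoprotein gene of immature lymphocytes, had effector minus naive values of -0.24 (Th1) and -0.13 (Th2), rested minus effector values of -0.96 and -1.15 and memory minus rested values of -0.80 and -0.0035, none called. The mean of both markers was 5.00 to 5.32 in naive, 4.00 to 4.60 in effector, 3.79 to 4.20 in rested Th1 and 3.33 to 3.83 in rested Th2 cells, and 4.32 to 4.52 in memory Th1 and 4.83 to 4.95 in memory Th2 cells. The part of these markers in the levels of Vps37b and Ifrd1 was not tested. In bulk RNA, fewer cells of a type and less RNA per cell cannot be told apart.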

How the data were processed

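RNA labelled with 33P-dCTP was read on 42 arrays in 1 channel, 2 for each of 21 samples, per the labels' protocols. The deposited files gave linear spot intensities, 9600 on each array, and how the authors read the images or treated background is not given in the sources used here, nor is the signal at saturation. The number of samples, 3 per group, limits the precision. All arrays were quantile-normalised together, 1 was added and log2 was taken, which understates the change of dim genes, and then the 2 spots of a reporter and the arrays a and b of a sample were averaged. The series matrix, also deposited, held these intensities times a constant per array and served as an alternative. Its columns were multiplied by 1 common factor to bring them to the scale of the intensities.

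A linear model over all 7 groups was fitted by lmFit and eBayes of limma (version 3.58.1, R 4.3.3), adjusted by Benjamini-Hochberg over 4992 reporters per comparison and called at 0.05. This fit does not use the sample number, and every SE, interval and adjusted p is from it unless another is named. The fit was tested on simulated data. Tables and plots used Python 3.11.15, pandas 2.3.3, numpy 2.4.6, scipy 1.17.1 and matplotlib 3.10.9. Symbols came from the platform table (3626 reporters with 1 gene, 172 with several and not used) and 3605 were found in a RefSeq table of GRCm38.p6.

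Genes named are the pair, members of 16 lists, and for each of the pair the 5 genes of highest Pearson r. The brightest reporter stood for genes with more than 1. The pair and the lists were chosen with earlier results of these data known. Samples with the same number deviated together from their group means (39 pairs over the comparisons used, r = 0.139 to 0.909; samples of different number, r = -0.664 to 0.222), so the numbers pair the samples; this pairing comes from the data and the shared spot patterns, since the labels give only the numbers. Alternatives were median centring, the series matrix values, a pseudocount of 10, leaving out reporters with a mean level under 3, the sample number as a block, the spot pattern as a random block, either array or spot alone, and leaving out each sample in turn. Protein sequences were not used here.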

Additional observations from a re-analysis of the deposited data

Results flagged for a closer look

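S100a9, a calcium-binding protein gene of granulocytes read here as a marker of other cells, differed between the lineages in the memory step. Its memory minus rested value was -1.76 ± 0.33 in Th1 and 0.87 ± 0.33 in Th2 cells, a Th1 minus Th2 difference of -2.64 ± 0.46 (adjusted p = 0.0255 for the interaction in limma). The call was lost in 5 of the 21 fits without 1 sample. It was also lost with a pseudocount of 10, with array b alone and with either spot alone. For Vps37b and Ifrd1 the same difference was 0.34 ± 0.54 and -0.06 ± 0.47, with neither called. At the memory stage itself, Th1 minus Th2 was -2.75 for S100a9 (limma, adjusted p = 0.000164), where 0.2% of all reporters were called. That call was kept in all 21 fits without 1 sample. Lyz2 (-1.98, adjusted p = 0.00487) and Ltf, a granulocyte marker (-1.37, adjusted p = 0.0396), were also called there. They lost the call in 1 and 12 of the 21 fits. Their part in the Ifrd1 levels was not tested.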

How the results depend on the processing

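The stage differences of Vps37b and Ifrd1 kept their direction under every alternative wherever they exceeded 1 in size. A pseudocount of 10 in place of 1 shrank 7 of them beyond the SD within groups: Vps37b to -2.58 (effector Th1 minus naive), -2.54 (effector Th2 minus naive), 2.14 (memory Th1 minus rested Th1), -2.48 (rested Th1 minus naive) and -2.18 (rested Th2 minus naive), and Ifrd1 to 2.08 (memory Th1 minus rested Th1) and -2.39 (rested Th1 minus naive). Without 1 sample, Ifrd1 ranged from -2.16 to -1.34 (rested Th1 minus effector Th1), 2.16 to 2.98 (memory Th1 minus rested Th1) and -3.31 to -2.49 (rested Th1 minus naive), with rested Th1 sample 2 left out at the far end.

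Of the lineage differences, none called, median centring turned that of Vps37b in memory cells to 0.075 and that of Ifrd1 in the memory step to 0.17. With the spot pattern as a random block the Ifrd1 values of -0.51 (rested), -0.56 (memory) and -0.95 (rest step) passed. Without 1 sample the sign turned in some fits, over ranges of -0.29 to 0.13 (Vps37b, effector), -0.47 to 0.23 (Vps37b, memory), -0.0071 to 0.69 (Vps37b, memory step) and -0.41 to 0.42 (Ifrd1, memory step). The replicate block changed no call of either gene between lineages. Under median centring the median reporter stood at -0.13 in effector Th1 minus naive cells, against -0.05 with quantile normalization.

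Counts of calls moved more. With the replicate block the steps had 836 and 761 (effector Th1 and Th2), 1362 and 790 (rest) and 1607 and 719 (memory) calls, and the lineage comparisons 26 (effector), 118 (rested), 20 (memory), 37 (mean), 12 (rest step) and 52 (memory step). With the pattern as a random block the lineage counts were 121, 1005, 396, 514, 398 and 823 in that order. Array b alone gave 576 and 127 in the Th1 and Th2 memory steps, 9 (rested), 10 (mean), 3 (rest step) and 0 (memory step); array a alone gave 0 (rested), 5 (memory), 7 (mean) and 2 (rest step). The first spot alone gave 8 (rested), 6 (memory), 2 (rest step) and 1 (memory step), and the second 3, 6, 2 and 1. Median centring gave 103 (Th2 memory step), 7 (rested) and 10 (lineages in the memory step). A pseudocount of 10 gave 23 (effector), 68 (rested), 33 (mean), 15 (rest step) and 12 (memory step), and leaving out dim reporters 15 (effector) and 1 (memory step). Without 1 sample the counts ranged from 555 to 923 and 94 to 305 (Th1 and Th2 memory steps), 522 to 859 and 214 to 401 (Th1 and Th2 rest steps), and 0 to 43 (rested), 4 to 17 (memory), 2 to 6 (rest step) and 1 to 26 (memory step) between lineages. The causes were not tested. Of 103 called results of list genes, 67 passed in each of the fits that left out 1 sample. Low signal limits dim genes, and no detection call was used.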

Other observations

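Genes of endosomal traffic and receptor down-regulation, the wider setting of Vps37b, were measured for 17 of 33 listed members. In effector cells 2 rose and 0 fell in Th1 (9.88% of all reporters called) and 1 rose and 0 fell in Th2 cells (9.13%). In the rest steps 0 rose and 1 fell in each lineage (16.2% in Th1, 7.57% in Th2), and in the memory steps 4 rose and 2 fell in Th1 (17.8%) and 1 rose and 1 fell in Th2 cells (3.91%). Without 1 sample the Th1 memory counts ranged from 2 to 4 rises and 0 to 3 falls, with 2 rises without memory Th1 sample 1 or 3 or rested Th1 sample 1 or 2, and at most 1 fall without any 1 of the 6 Th1 samples of that step. The Th1 effector rises numbered 1 without any 1 of the 6 samples compared, the Th2 effector rises 2 without memory Th2 sample 3, and the Th1 rest falls 2 in 7 of the 21 fits. The Th2 memory fall was lost in 11 of the 21 fits. With the sample number as a block, 4 rose and 1 fell in each effector step (16.7% and 15.2% of all reporters called in Th1 and Th2), 1 rose and 3 fell (Th1, 27.3%) and 1 rose and 2 fell (Th2, 15.8%) in the rest steps, and 6 rose and 3 fell (Th1, 32.2%) and 3 rose and 1 fell (Th2, 14.4%) in the memory steps. Lamp1, a membrane protein of lysosomes, rose in memory against rested cells by 1.32 ± 0.24 in Th1 (adjusted p = 0.00121) and 1.49 ± 0.24 in Th2 cells (adjusted p = 0.000912), while its effector minus naive values were -0.07 and -0.11. Rnf128, a ubiquitin ligase of anergic T cells, rose in effector Th1 cells by 2.02 ± 0.35 and in effector Th2 cells by 4.70 ± 0.35, and fell in rested Th2 cells (-3.05 ± 0.35).

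Genes linked to naive and quiescent T cells were measured for 11 of 20 listed members, and 4 fell in each effector step while 0 rose, beside 9.88% (Th1) and 9.13% (Th2) of all reporters called. Dusp10, Gimap4 and Tsc22d3 fell in both lineages, Foxo1 in Th1 and Btg1 in Th2 cells. In the rest steps 2 of the 11 rose in Th1 (16.2% of all reporters called) and 1 in Th2 cells (7.57%). In the memory steps Tsc22d3 alone rose, 1 of the 11 in Th1 (17.8%) and in Th2 cells (3.91%). The later steps had 0 falls. Without 1 sample none of these rises numbered more than 2, and 1 fell in the Th2 memory step without memory Th1 or memory Th2 sample 2. Dusp10, a phosphatase that switches off stress kinases, fell in effector cells (-3.99 ± 0.37 in Th1, -2.53 ± 0.37 in Th2) and rose by 2.81 ± 0.37 and 1.76 ± 0.37 in the rest step of the same lineages, with memory minus rested values of 0.16 and 0.43. Gimap4, a GTPase gene of lymphocytes, rose by 1.11 ± 0.22 in the Th1 rest step, a call that was lost with median centring. Tsc22d3 was called in the memory steps, with rises of 2.15 ± 0.28 (Th1) and 2.11 ± 0.28 (Th2), and had rest values of 0.11 and 0.40 that were not called. Foxo1, a transcription factor gene of quiescent T cells, had an effector Th1 value of -1.02 ± 0.32 whose call was lost in 13 of the 21 fits without 1 sample, with later Th1 values of -0.19 (rest) and 0.84 (memory) that were not called. Btg1, an antiproliferative gene, fell in effector Th2 cells (-1.58 ± 0.32) and had later Th2 values of 0.89 and 0.07 that were not called. Of 22 listed genes of the ATF4 and integrated stress response 3 were measured. Of these, 1 rose in effector Th1 cells (9.88% of all reporters called) and 0 were called in effector Th2 cells (9.13%). In each rest step 1 fell (16.2% in Th1, 7.57% in Th2), and in each memory step 1 rose (17.8% in Th1, 3.91% in Th2). Atf4, its central transcription factor gene, had values between -0.44 and 0.12 over the 6 steps, none called. Vldlr, a lipoprotein receptor gene, rose in effector Th1 cells by 1.45 ± 0.34 and fell in the rest steps (-1.72 ± 0.34 in Th1, -1.26 ± 0.34 in Th2), the Th2 call being lost without effector Th2 sample 2 or 3 or rested Th2 sample 1. Slc3a2, an amino acid transporter chain gene, rose in memory against rested cells by 1.21 ± 0.34 (Th1) and 1.50 ± 0.34 (Th2). Both calls were lost with median centring, the Th1 call also without rested Th1 sample 3 or memory Th1 sample 1 or 3, and the Th2 call without rested Th2 sample 1 or 3 or memory Th2 sample 3.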
